A study of Homo sapiens with 24 samples.

Results

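The parental MCF-10A line, which carries no MYC-ER fusion, was compared after 24 h of 4-hydroxytamoxifen (4-OHT) and at 0 h. The comparison rests on 6 of the 24 RNA-seq libraries of the series, 3 in each group, and runs across all genes. Every culture was wild-type MCF-10A, a non-tumorigenic human mammary epithelial line, grown on growth-factor-reduced Matrigel. The 24 h group received 1 µM 4-OHT for the last 24 h before collection on day 5. The 0 h group was collected on the same day without the agent, and no vehicle is named for it, so 4-OHT and its solvent cannot be told apart. Cells were seeded in triplicate, and nothing says that the 3 libraries of a group came from separate experiments, so p-values measure the spread between these samples only. The other 18 libraries are parental cells at 8 h and 48 h and MCF-10A cells with the MYC-ER fusion at the same 4 times.

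4-OHT is an active metabolite of tamoxifen. It binds oestrogen receptors and is used in engineered lines to switch on a protein fused to a receptor's hormone-binding domain, here MYC. Parental cells receive the agent without the fusion and so serve as the control for the agent itself. MCF-10A cells are basal-like, depend on added EGF, insulin and hydrocortisone, and are regarded as negative for the classical oestrogen receptor.

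The labelled line matched its markers. KRT5, KRT14, KRT17, KRT6A, TP63, EGFR, CDH3, ITGB4, LAMB3 and SFN were present in all 6 libraries, with a summed level of 34010 to 41663 CPM (counts scaled to library size) at 0 h and 31325 to 35667 CPM at 24 h. ESR1, the classical receptor, lay at 0.131 to 0.240 CPM at 0 h and 0.167 to 0.277 CPM at 24 h, and its target PGR was at 0 in all 6. Among defining markers of other cell types, COL3A1 and COL1A2 of fibroblasts, CDH5 of endothelium, PTPRC and CD3E of immune cells, and ADIPOQ and LEP of adipocytes were at 0 in all 6 libraries. Other members of these lists were present in all 6. COL1A1, DCN and FAP of fibroblasts lay at 53.6 to 105, 22.4 to 33.0 and 6.55 to 10.3 CPM. CD68 and CD14 of immune cells lay at 12.1 to 20.8 and 3.32 to 9.03 CPM, and KDR of endothelium at 0.975 to 1.53 CPM. The sum of the 8 fibroblast markers was 125 to 140.1 CPM at 0 h and 86.6 to 92.7 CPM at 24 h, and that of the 8 luminal markers, most of it from AREG, 71.8 to 83.3 and 124 to 136 CPM. Immune markers summed to 21.8 to 22.2 and 23.5 to 25.4 CPM, endothelial markers to 2.33 to 2.86 and 2.32 to 2.96 CPM, myoepithelial markers to 16.4 to 23.4 and 15.3 to 15.7 CPM, and adipocyte markers to 0.648 to 1.03 and 0.281 to 0.464 CPM. Their part in the results was not tested.

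Libraries held 168119848 to 182438505 counts at 0 h and 150930818 to 168327854 at 24 h. Within the 0 h group, replicate 2 differed from replicates 1 and 3. The rank correlation of 0 h replicate 2 across genes was 0.9900 with 0 h replicate 1 and 0.9854 with 0 h replicate 3. The library closest to it was 24 h replicate 1, at 0.9904. Libraries also differed by GC content. The mean GC content of protein-coding counts was 52.24% and 52.35% in 0 h replicates 1 and 3 and 51.39% in 0 h replicate 2. All other libraries of the series, both lines included, lay at 50.83% to 51.42%. By this measure 0 h replicates 1 and 3, and not replicate 2, lay outside the rest of the series. Over 9607 genes whose mean reached 10 CPM, the change from 0 h to 24 h ranked with transcript GC content at rho = -0.65, so AT-rich genes tended to be higher at 24 h and GC-rich genes lower. A library's own deviation from the mean of the 6 ranked with GC content at 0.70 and 0.61 in 0 h replicates 1 and 3, at -0.22 in 0 h replicate 2, and at -0.57, -0.73 and -0.52 at 24 h. These are correlations across genes, which are not independent. Each gene group below is therefore also given after every library's trends on GC content and transcript length were removed, where the first rho became -0.03, and the part of the trends in a group's change was not tested. Mitochondrial transcripts took 5.41% ± 1.79 of counts at 0 h and 5.70% ± 0.743 at 24 h (SD, n = 3 each, two-sided exact permutation p = 0.9).

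**Figure D1:**
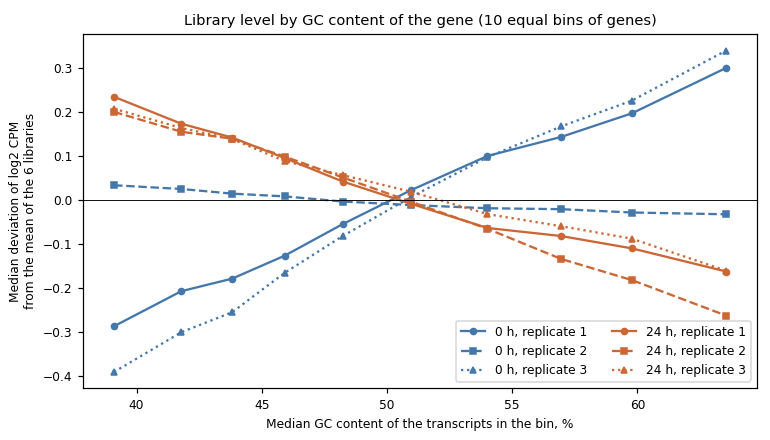
Median deviation of log2 CPM from the mean of the 6 libraries (y axis) in 10 equal bins of 961 genes ordered by transcript GC content (x axis, percent), with 1 line per library. In the bin of lowest GC content the 24 h libraries lay at 0.20 to 0.23 and 0 h replicates 1 and 3 at -0.29 and -0.39, while 0 h replicate 2 lay at 0.03.

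Of 19581 genes tested with edgeR's quasi-likelihood test, 4923 (25.1%) passed a Benjamini-Hochberg adjusted p of 0.05 and are called here: 2492 were higher at 24 h (12.7%) and 2431 lower (12.4%). The counts for gene groups below that keep all 6 libraries and the trends can be read against these last shares. Scaling by the upper quartile gave 1987 higher and 3291 lower, and the median log2 change over all genes went from -0.02 to -0.10. Most changes were small. A difference of at least 2-fold was called for 642 genes (3.28%), 331 higher (1.69%) and 311 lower (1.59%). For 9283 genes the 3 values of one group lay entirely above those of the other (47.4%). This held for 4895 of the 4923 called genes, so a lack of overlap adds little once a gene is called. With the GC and length trends removed 3282 genes (16.8%) were called, 9.11% of all genes higher and 7.66% lower, and 2326 genes were called with the same sign both ways.

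The number of calls changed widely when 1 library was left out, which also made the fit smaller. The number was 198 without 0 h replicate 1, 8997 without 0 h replicate 2, 2171 without 0 h replicate 3, and 332, 406 and 240 without 24 h replicates 1, 2 and 3. Without 0 h replicates 1, 2 and 3, 113, 4653 and 1185 genes were higher and 85, 4344 and 986 lower. Without 24 h replicates 1, 2 and 3, 183, 251 and 139 were higher and 149, 155 and 101 lower. Counts for gene groups without 1 library are to be read against these numbers out of 19581 genes, because calls over all genes moved in the same fits. All 4923 called genes kept their sign in these 6 fits. Because nearly all of them showed no overlap between groups, leaving out 1 library could hardly turn a sign, so this does not measure stability. A set of 179 genes, 106 higher and 73 lower, was called in every one of the 6 fits, and its members are termed firm below. The term refers to these 6 fits alone and not to other settings. A called gene not termed firm therefore lost its call without at least 1 of the libraries. Fitting all 24 libraries together, with 22158 genes passing the filter on low counts, gave 9503 called genes (42.9% of those tested), and between 7866 and 10691 when any 1 of the 6 libraries was left out. In the fits of the compared libraries alone, genes with an unadjusted edgeR p under 0.05 numbered 8134 with all 6 libraries. Without 1 of them these genes numbered 5923 to 10323, so the adjusted counts moved by more. The part of the smaller fits in these counts was not tested.

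The 12 rises and 12 falls described first are the largest among called genes that averaged at least 5 CPM in the higher group, had no overlap between groups and carry an ordinary gene symbol. SERPINB2, which encodes plasminogen activator inhibitor-2, had 1.08, 1.39 and 0.904 CPM at 0 h and 11.8, 12.2 and 10.1 CPM at 24 h, a log2 change of 3.34 ± 0.18 (SE, n = 3 each, edgeR quasi-likelihood adjusted p = 0.00041), or 10.1-fold. INHBA, the activin A subunit, had 5.10, 6.06 and 3.63 CPM at 0 h and 32.2, 29.9 and 30.4 CPM at 24 h (log2 2.65 ± 0.18, edgeR adjusted p = 0.0006). DEPP1, a FOXO-induced gene, had 2.38, 2.20 and 3.21 CPM at 0 h and 15.2, 16.3 and 20.6 CPM at 24 h (log2 2.75 ± 0.18, edgeR adjusted p = 0.0006). That the groups do not overlap was part of the rule that chose these genes. The gelatinase MMP9 had 1.22, 0.874 and 1.09 CPM against 6.97, 5.91 and 6.50 CPM (log2 2.61 ± 0.16) and the stromelysin MMP10 2.36, 1.91 and 2.79 CPM against 8.28, 9.64 and 8.84 CPM (log2 1.93 ± 0.16). TGM2, the tissue transglutaminase that cross-links matrix proteins, had 2.65, 2.50 and 2.81 CPM against 8.95, 8.81 and 9.83 CPM (log2 1.80 ± 0.11). STEAP4, a metalloreductase, rose from 4.43 ± 0.604 to 14.6 ± 1.06 CPM (SD, n = 3 each, log2 1.72 ± 0.13), and PRDM1, the transcriptional repressor BLIMP-1, from 6.01 ± 0.699 to 19.2 ± 1.14 CPM (log2 1.68 ± 0.12). These 8 genes were firm.

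The other 4 of the 12 largest rises were less even. LOXL2, a lysyl oxidase that cross-links collagen, had 2.67 to 4.20 CPM at 0 h and 9.34 to 16.2 CPM at 24 h (log2 1.89 ± 0.24), and its edgeR adjusted p was 0.00552, or 0.0504 without 0 h replicate 1. EGLN3, a prolyl hydroxylase of the oxygen-sensing pathway, had 5.31, 4.22 and 7.33 CPM at 0 h and 14.5, 14.7 and 28.8 CPM at 24 h (log2 1.79 ± 0.30). Its 24 h replicate 3 was the highest library, and its edgeR adjusted p was 0.013, or 0.0786 without 0 h replicate 1. IKZF2, which encodes the transcription factor Helios, had 1.46 to 3.83 CPM at 0 h and 7.83 to 9.25 CPM at 24 h (log2 1.79 ± 0.31), and POMK, a kinase that modifies the sugar chain of dystroglycan, 0.761 to 4.20 CPM at 0 h and 7.15 to 8.71 CPM at 24 h (log2 1.64 ± 0.48). Each of these was called in 2 of the 6 fits without 1 library.

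KRT10 had the largest fall under the same rule. This keratin marks suprabasal, differentiating cells of stratified epithelium. It had 563, 533 and 523 CPM at 0 h and 134, 136 and 133 CPM at 24 h, a log2 change of -2.00 ± 0.08 (SE, n = 3 each, edgeR quasi-likelihood adjusted p = 8.5e-05), and -1.99 with the trends removed. SAMD11 had 11.4 to 15.8 CPM at 0 h and 4.11 to 4.74 CPM at 24 h (log2 -1.65 ± 0.14), and CALML3, a calmodulin-like protein of epithelial cells, 6.42 to 9.97 CPM at 0 h and 2.40 to 3.20 CPM at 24 h (log2 -1.61 ± 0.19). CD36, a scavenger receptor that takes up fatty acids, fell from 6.95 ± 0.894 to 2.35 ± 0.0699 CPM (SD, n = 3 each, log2 -1.56 ± 0.14). The other firm falls among the 12 largest were UGT1A7, a glucuronidating enzyme (log2 -1.58 ± 0.21), EPHB6, an Eph receptor without kinase activity (-1.55 ± 0.16), ATOH8, a bHLH transcription factor (-1.31 ± 0.15), UPK3BL2 (-1.30 ± 0.16) and ETNK2, an ethanolamine kinase (-1.28 ± 0.16).

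The last 3 of the 12 largest falls depended on which libraries were kept. GCHFR, which regulates tetrahydrobiopterin synthesis (log2 -1.34 ± 0.21), was called in 4 of the 6 fits without 1 library, and LGALS7, an epithelial galectin (-1.28 ± 0.24), in 2. UPK3BL1 had 6.79 to 7.82 CPM at 0 h and 0.524 to 3.32 CPM at 24 h (log2 -1.77 ± 0.52, edgeR adjusted p = 0.0398) and an adjusted p of 0.145 in the edgeR fit of all 24 libraries. UPK3BL1 and UPK3BL2 are near-identical copies, LGALS7 has a copy in LGALS7B, and UGT1A7 shares exons with its neighbours, so reads may have been split between copies and these values are uncertain.

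**Figure D2:**
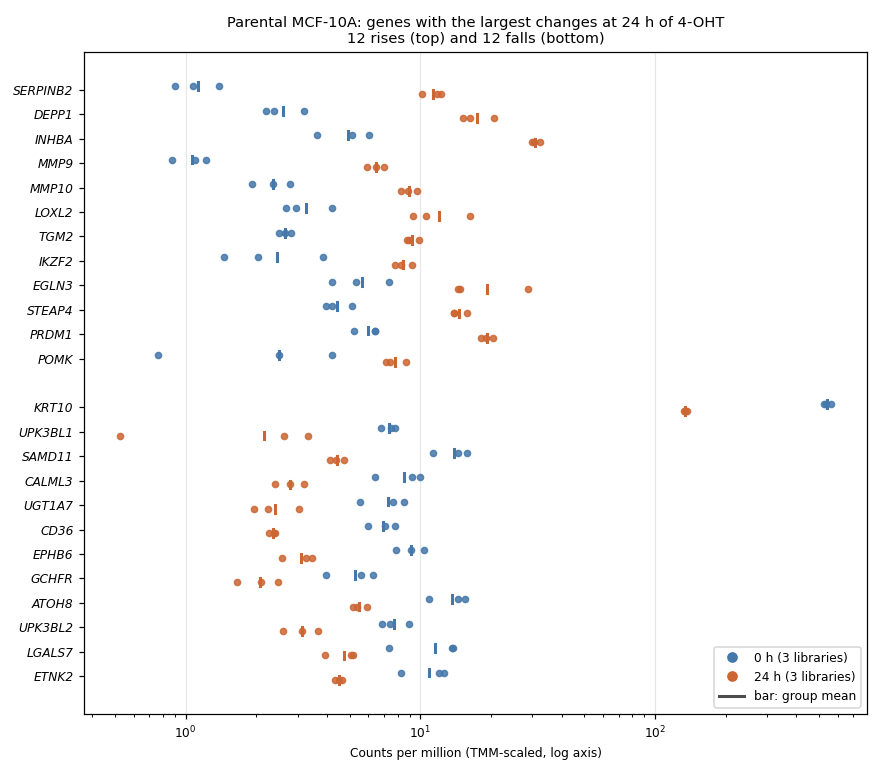
Levels of the 12 genes with the largest rises and the 12 with the largest falls (x axis, CPM on a log scale), with 1 point per library (blue 0 h, orange 24 h) and a bar at each group mean. SERPINB2 lay at 0.904 to 1.39 CPM at 0 h and 10.1 to 12.2 CPM at 24 h, and KRT10 at 523 to 563 and 133 to 136 CPM.

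Some promoters of genes that rose are shown first. Each comes from a gene that rose and holds the letters, so they cannot show whether the letters go with a rise. The NF-kB, hypoxia and FOXO lists are named for the factors that bind these letters. A share there above that of all genes is therefore no result of these data. The plasminogen genes often held TGANTCA, the letters to which AP-1 dimers of FOS and JUN bind. A RefSeq window from 250 bases before to 50 bases after the start (build GRCh38.p14) was found for 12 of the 16 listed genes, and 8 (66.7%) held the letters on either strand, against 9.37% of 27305 genes with a window. Among metalloproteinases and their inhibitors 2 of 7 held them. Of the members with a window that were called higher at 24 h, 6 of 8 plasminogen genes and 1 of 1 metalloproteinase gene held them. Plasminogen genes that were not called higher held them as well. The plasminogen list was chosen with earlier results of these data known and holds several genes of the same serpin family. Its share is therefore no result of these data either, and whether the letters go with a rise was not tested. The 250 bases before the start are shown for SERPINB2 (chr18:63887455-63887704, + strand), F3 (chr1:94541760-94542009, - strand) and MMP10 (chr11:102780629-102780878, - strand), firm members of these groups, with the motif in capitals.
SERPINB2: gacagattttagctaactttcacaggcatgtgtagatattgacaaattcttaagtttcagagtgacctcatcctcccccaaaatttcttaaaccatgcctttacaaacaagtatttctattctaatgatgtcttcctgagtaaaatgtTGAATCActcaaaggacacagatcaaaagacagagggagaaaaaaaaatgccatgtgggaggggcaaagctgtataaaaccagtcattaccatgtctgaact
F3: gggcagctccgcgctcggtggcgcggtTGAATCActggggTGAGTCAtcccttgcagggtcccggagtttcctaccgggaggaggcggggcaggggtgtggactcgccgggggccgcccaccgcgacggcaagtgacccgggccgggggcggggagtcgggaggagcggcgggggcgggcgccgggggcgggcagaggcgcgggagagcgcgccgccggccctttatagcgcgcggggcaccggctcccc
MMP10: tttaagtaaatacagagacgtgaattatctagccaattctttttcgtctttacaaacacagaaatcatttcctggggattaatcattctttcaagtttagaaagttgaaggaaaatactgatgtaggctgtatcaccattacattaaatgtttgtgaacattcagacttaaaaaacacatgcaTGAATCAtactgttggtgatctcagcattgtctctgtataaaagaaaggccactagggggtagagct
The motif began 102 bases before the start in SERPINB2, 223 and 210 bases before it in F3, and 67 bases before it in MMP10. A match describes the letters and not binding.

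The core of NF-kB sites, read as 3 G, any 2 bases, 3 T and 2 C, stood on either strand in the window of 11 of 21 listed NF-kB genes (52.4%), against 2.33% of all genes. Of the 15 members with a window that were called higher at 24 h, 7 held them. BIRC3 (chr11:102317234-102317483, + strand) and TNFAIP3 (chr6:137867009-137867258, + strand) are shown because both rose and are not part of a family of close copies in this list.
BIRC3: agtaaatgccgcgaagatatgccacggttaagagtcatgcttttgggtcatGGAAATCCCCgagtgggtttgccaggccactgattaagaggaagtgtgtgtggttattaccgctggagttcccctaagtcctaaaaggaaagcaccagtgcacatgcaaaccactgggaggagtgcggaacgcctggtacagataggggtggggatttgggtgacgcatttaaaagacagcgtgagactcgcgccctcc
TNFAIP3: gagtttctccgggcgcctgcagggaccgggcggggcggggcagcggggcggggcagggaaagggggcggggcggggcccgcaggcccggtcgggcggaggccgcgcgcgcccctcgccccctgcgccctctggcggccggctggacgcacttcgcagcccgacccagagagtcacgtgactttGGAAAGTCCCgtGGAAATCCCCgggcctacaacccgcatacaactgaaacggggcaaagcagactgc
Their motifs, in capitals, began 199 bases before the start in BIRC3, and 67 and 55 bases before it in TNFAIP3.

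The hypoxia-inducible factor core ACGTG stood in the window of 13 of 20 listed hypoxia genes (65%), against 24.9% of all genes, and the FOXO letters GTAAACA in 4 of 19 FOXO genes (21.1%), against 4.19%. Both strands were searched. Of the members with a window that were called higher at 24 h, 7 of 10 hypoxia genes and 1 of 3 FOXO genes held the letters. ANGPTL4 (chr19:8363905-8364154, + strand), CA9 (chr9:35673678-35673927, + strand) and DEPP1 (chr10:44978810-44979059, - strand) are shown as members that rose and hold the letters, with the motif in capitals.
ANGPTL4: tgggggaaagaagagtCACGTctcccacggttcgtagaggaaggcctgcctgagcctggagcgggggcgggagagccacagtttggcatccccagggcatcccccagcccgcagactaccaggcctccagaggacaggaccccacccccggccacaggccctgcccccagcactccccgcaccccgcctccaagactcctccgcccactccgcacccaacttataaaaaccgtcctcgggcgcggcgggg
CA9: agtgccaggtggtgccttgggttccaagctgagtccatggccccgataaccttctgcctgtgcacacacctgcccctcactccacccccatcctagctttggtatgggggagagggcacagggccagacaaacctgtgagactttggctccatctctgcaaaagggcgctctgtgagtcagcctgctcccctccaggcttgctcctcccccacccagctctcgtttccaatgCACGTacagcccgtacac
DEPP1: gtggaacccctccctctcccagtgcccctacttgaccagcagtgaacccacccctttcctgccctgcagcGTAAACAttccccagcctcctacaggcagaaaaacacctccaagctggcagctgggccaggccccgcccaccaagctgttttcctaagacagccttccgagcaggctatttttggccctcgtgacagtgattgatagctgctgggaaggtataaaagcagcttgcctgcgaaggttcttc
The core began 234 bases before the start in ANGPTL4 and 18 bases before it in CA9, and the FOXO letters 180 bases before it in DEPP1.

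Most genes of the plasminogen system rose, SERPINB2 among them. This system turns plasminogen into the protease plasmin at the cell surface, with urokinase (PLAU) and its receptor as activators and serpins as inhibitors, and tissue factor (F3) starts coagulation. Of 15 members tested, 10 were called higher and 1 lower, with a median log2 change of 0.56 beside -0.02 over all genes. The counts were 10 and 1 with the trends removed (median 0.68), and the number called higher was 11 without 0 h replicate 2 and 6 to 9 without any other single library, lowest without 0 h replicate 1 or 24 h replicate 3. F3 had 36.6, 34.5 and 32.9 CPM at 0 h and 81.2, 81.3 and 86.6 CPM at 24 h (log2 1.27 ± 0.09) and PLAU 49.0, 45.2 and 50.5 CPM against 84.9, 94.4 and 87.4 CPM (log2 0.89 ± 0.09). In both genes the groups did not overlap. TFPI2, an inhibitor of tissue factor and plasmin, had 2.82, 2.96 and 3.50 CPM against 9.27, 8.23 and 10.3 CPM (log2 1.59 ± 0.14), and SERPINE2, or protease nexin-1, rose by log2 0.83 ± 0.08. These 4 genes and SERPINB2 were firm. SERPINB7, SERPINB8, the urokinase receptor PLAUR and the thrombin receptor THBD were also called higher, at 1.23 ± 0.20, 0.56 ± 0.11, 0.48 ± 0.11 and 0.35 ± 0.10. PLAT, the tissue-type activator, went the other way, with 128, 124 and 128 CPM against 93.2, 94.5 and 95.7 CPM (log2 -0.42 ± 0.08).

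Among 13 matrix metalloproteinases, their inhibitors and ADAM17, 3 were called higher and 3 lower (median 0.03), or 3 and 2 with the trends removed. The collagenase MMP1 had 7.41, 6.56 and 7.72 CPM against 17.2, 17.0 and 17.3 CPM (log2 1.25 ± 0.10) and was firm, as were MMP9 and MMP10. The 3 falls were the gelatinase MMP2 (-0.53 ± 0.14), the membrane-bound MMP15 (-0.68 ± 0.15) and MMP28 (132, 97.6 and 140.4 CPM against 83.7, 74.4 and 84.6 CPM, log2 -0.60 ± 0.14), and none was firm. The TIMP inhibitors did not pass the test.

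Laminins, which anchor epithelial cells to the basement membrane, rose in an alpha and a beta chain. LAMA3 had 672, 721 and 642 CPM at 0 h and 1531, 1463 and 1627 CPM at 24 h (log2 1.19 ± 0.09, edgeR adjusted p = 0.00101) and LAMB3 1385, 1069 and 1286 CPM against 1678, 1588 and 1735 CPM (log2 0.42 ± 0.11). The LAMA3 groups lay far apart relative to their spread. Of 23 matrix and integrin genes, 14 were called higher and 2 lower (median 0.42), or 12 and 1 with the trends removed (median 0.51). LAMA3 was firm, and the count of higher genes was 14 without 0 h replicate 2, 11 without 0 h replicate 3, and 2, 3, 6 and 2 without 0 h replicate 1 or 24 h replicates 1, 2 and 3. The collagen receptor subunit ITGA2 had 36.9, 66.6 and 34.1 CPM against 122, 118 and 129.8 CPM (log2 1.43 ± 0.24) and the common beta chain ITGB1 581, 702 and 490.3 CPM against 980.0, 953 and 1017 CPM (log2 0.74 ± 0.13). In both, 0 h replicate 2 was the highest of its group and still below every 24 h library. ITGAV, ITGB8 and ITGA6 rose by log2 1.01 ± 0.28, 1.28 ± 0.31 and 0.61 ± 0.15. The collagen IV chain COL4A1 and fibronectin, FN1, rose by 1.02 ± 0.18 and 0.70 ± 0.11, whereas NID1, which links laminin to collagen IV, fell by 1.02.

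Among activin and TGF-beta pathway genes, the activin A subunit INHBA and the TGF-beta receptor chains TGFBR1 and TGFBR2 were higher. Activins and TGF-betas bind paired receptor kinases that phosphorylate SMAD2 and SMAD3, whereas BMPs act through SMAD1, SMAD5 and SMAD9 and induce ID genes. Of 24 activin and TGF-beta genes, 8 were called higher and 1 lower (median 0.19), or 9 and 1 with the trends removed. The number higher was 9 without 0 h replicate 2, 6 without 0 h replicate 3, and 2, 2, 3 and 2 without 0 h replicate 1 or 24 h replicates 1, 2 and 3. INHBA was firm. The receptor TGFBR1 had 42.2, 51.1 and 34.7 CPM against 71.7, 58.0 and 70.9 CPM (log2 0.65 ± 0.15) and TGFBR2 rose by log2 0.57 ± 0.11. The signal transducers SMAD3 and SMAD4 rose by 0.55 ± 0.10 and 0.50 ± 0.13, the repressor SKIL by 0.70 ± 0.22, and LTBP2, a latent TGF-beta binding protein, by 0.74 ± 0.13. BAMBI, a decoy receptor, fell by 0.42. FST, which sequesters activin, had 0.31 ± 0.17, and the targets TGFBI and PMEPA1 had -0.23 ± 0.09 and 0.25 ± 0.11.

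Of 16 BMP pathway and ID genes, 6 were called lower and 3 higher (median 0.04), or 5 and 2 with the trends removed (median -0.09). The number lower was 6 without 0 h replicate 2, 4 without 0 h replicate 3 and 3 without each of the other 4 libraries. The firm falls were feedback and target genes. ATOH8 had 14.5, 10.9 and 15.5 CPM against 5.17, 5.36 and 5.94 CPM, the BMP antagonist NOG 2.40, 1.86 and 2.32 CPM against 0.898, 0.762 and 0.960 CPM (log2 -1.32 ± 0.18), and the inhibitory SMAD6 11.4, 12.3 and 11.4 CPM against 7.13, 6.56 and 6.79 CPM (log2 -0.77 ± 0.10). ID1, an inhibitor of bHLH factors, had 371, 289.6 and 399 CPM against 218, 209 and 207 CPM (log2 -0.74 ± 0.12). Its 0 h replicate 2 was the lowest of its group and still above every 24 h library. ID2 and ID3 fell by 0.46 and 0.49. The 3 rises were the ligand BMP2 (0.44 ± 0.13), the receptor BMPR2 (0.91 ± 0.24) and SMAD5 (0.71 ± 0.22).

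Most inflammatory cytokines and NF-kB target genes listed were higher at 24 h. NF-kB is the transcription factor that switches on chemokines, IL-1 family cytokines and its own inhibitors after inflammatory signals. Of 23 members tested, 15 were called higher and 0 lower (median 0.77), or 16 and 0 with the trends removed (median 0.62). The number higher was 3, 16 and 12 without 0 h replicates 1, 2 and 3, and 5, 5 and 8 without 24 h replicates 1, 2 and 3. The firm members were a feedback inhibitor and a pair of alarmins. IL1A had 32.5, 38.9 and 38.1 CPM against 70.7, 78.2 and 62.8 CPM (log2 0.96 ± 0.12), IL33 0.994, 1.35 and 1.06 CPM against 3.60, 3.15 and 3.49 CPM (log2 1.59 ± 0.17), and TNFAIP3, which shuts NF-kB signalling off, 32.3, 36.7 and 30.4 CPM against 55.8, 57.7 and 54.9 CPM (log2 0.77 ± 0.10). BIRC3, an apoptosis inhibitor, had 104, 128 and 90.7 CPM against 209, 214 and 194 CPM (log2 0.94 ± 0.13). In none of these 4 genes did the groups overlap. IL1B rose by log2 0.99 ± 0.15, IL24 by 1.64 ± 0.25, the keratinocyte cytokine IL36G by 1.11 ± 0.28, the neutrophil chemokine CXCL8 by 0.97 ± 0.20 and the adhesion receptor ICAM1 by 0.39 ± 0.11. CXCL1, CXCL2 and CXCL3 rose by 0.50 ± 0.15, 0.69 ± 0.16 and 1.00 ± 0.21, but they are close copies among which reads may have been split. NFKB1, a subunit of the factor itself, had 0.19 ± 0.08 and did not pass the test.

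Of 15 AP-1 and early response genes, 2 were called higher and 2 lower (median 0.12), or 4 and 0 with the trends removed. FOS had 39.0, 41.8 and 42.2 CPM against 68.7, 65.5 and 68.4 CPM (log2 0.73 ± 0.08) and was firm, and MAFF, a small MAF factor, rose by 0.48 ± 0.10. JUNB fell by 0.52 but was not called with the trends removed, nor in 4 of the 6 fits without 1 library, and JUN had 0.09 ± 0.09.

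EGFR and several of its ligands were higher, while other members of the family were not called. EGF family ligands drive the growth of MCF-10A cells through EGFR and the ERK kinases, and SPRY and DUSP proteins dampen that signal. Of 12 ligands and receptors tested, 6 were called higher and 0 lower (median 0.67), or 5 and 0 with the trends removed. The number higher was 8 without 0 h replicate 2, 5 without 0 h replicate 3, and 2, 2, 3 and 2 without 0 h replicate 1 or 24 h replicates 1, 2 and 3. The firm members were amphiregulin, AREG, with 52.2, 58.2 and 67.4 CPM against 107, 119.6 and 109 CPM (log2 0.92 ± 0.11), and TGFA with 26.7, 29.4 and 25.7 CPM against 45.8, 43.5 and 47.6 CPM (log2 0.75 ± 0.09). EGFR had 425, 566 and 358 CPM against 728, 683 and 785 CPM (log2 0.71 ± 0.16), with 0 h replicate 2 nearest to the 24 h libraries. NRG1 and BTC, both ligands, rose by log2 0.81 ± 0.16 and 0.76 ± 0.22, and ERRFI1, an inhibitor of the receptor, by 0.73 ± 0.12. Of 16 ERK feedback genes, 5 were called higher and 1 lower (median 0.29), or 6 and 0 with the trends removed. The phosphatase DUSP4 (0.68 ± 0.08) and PHLDA1 (0.73 ± 0.09) were firm, SPRY4 rose by 0.63 ± 0.10, IL11 fell by 0.65, and DUSP6 had 0.26 ± 0.10. The log2 change of PHLDA1 ran from 0.24 to 0.79 over 25 alternative settings, and its call was lost in 2 of them.

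Of 14 genes of the YAP and TAZ pathway, which responds to cell shape and tension, 7 were called higher and 0 lower (median 0.47), or 9 and 0 with the trends removed. None was firm, and the number higher was 8 without 0 h replicate 2, 3 without 0 h replicate 3, 1 without 24 h replicate 2, and 0 without each of the other 3. The factors YAP1, WWTR1 and TEAD1 rose by 0.61 ± 0.17, 0.64 ± 0.16 and 0.98 ± 0.22, and the targets CCN2 and AMOTL2 by 0.96 ± 0.20 and 0.57 ± 0.11.

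Of 25 genes of epithelial junctions and mesenchymal transition, 11 were called higher and 0 lower (median 0.40), or 9 and 0 with the trends removed (median 0.21). The number higher was 14 without 0 h replicate 2, 7 without 0 h replicate 3, and 1, 1, 2 and 1 without 0 h replicate 1 or 24 h replicates 1, 2 and 3. Genes of both states were among the rises. N-cadherin, CDH2, had 2.43, 2.51 and 2.07 CPM against 4.52, 4.91 and 4.90 CPM (log2 1.03 ± 0.13) and was firm. The mesenchymal filament gene VIM had 182, 162 and 231 CPM against 336, 311 and 398 CPM (log2 0.87 ± 0.15). The groups did not overlap in either gene. The repressors ZEB1 and ZEB2 rose by 0.95 ± 0.26 and 0.82 ± 0.19, E-cadherin, CDH1, by 0.44 ± 0.10, DSG2 of desmosomes by 1.01 ± 0.21, and TJP1 and OCLN of tight junctions by 0.76 ± 0.15 and 1.06 ± 0.26. The fibroblast marker sum given above was lower at 24 h.

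Other keratins fell or were not called. Of 25 genes of squamous differentiation tested, 5 were called lower and 1 higher (median -0.20), or 3 and 0 with the trends removed (median 0.03). The number lower was 10 without 0 h replicate 2, 1 without 0 h replicate 1, 3 without 0 h replicate 3 and 2 without each 24 h library in turn. KRT10 alone was firm. KRT1, its partner, fell by 0.73, and KRTDAP and SPRR1B of the outer layers by 1.02 and 0.53. KRT16, an injury keratin, had 839, 580.1 and 793 CPM against 381, 356 and 405 CPM (log2 -0.95 ± 0.14), but it has close copies and its value is uncertain. FLG, the filaggrin gene, rose by 0.84 ± 0.20, and the envelope precursor IVL had 0.54 ± 0.26. Of 11 basal and simple keratins, 3 were called lower and 0 higher, but 2 and 3 with the trends removed. KRT14 had 10725, 7571 and 10877 CPM against 6029, 5835 and 6347 CPM (log2 -0.67 ± 0.14), with 0 h replicate 2 nearest to the 24 h libraries. Its partner KRT5 had -0.29 ± 0.11.

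Of 11 retinoid genes tested, 4 were called higher and 2 lower, or 4 and 0 with the trends removed. The firm ones were TGM2, the retinol transporter STRA6 (1.34, 1.01 and 1.44 CPM against 3.41, 3.79 and 3.31 CPM, log2 1.48 ± 0.17) and ALDH1A3, which makes retinoic acid (7.46, 8.91 and 6.83 CPM against 18.1, 17.0 and 17.8 CPM, log2 1.19 ± 0.12). DHRS3, which returns retinal to retinol, fell by 0.46 and was not called with the trends removed.

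**Figure D3:**
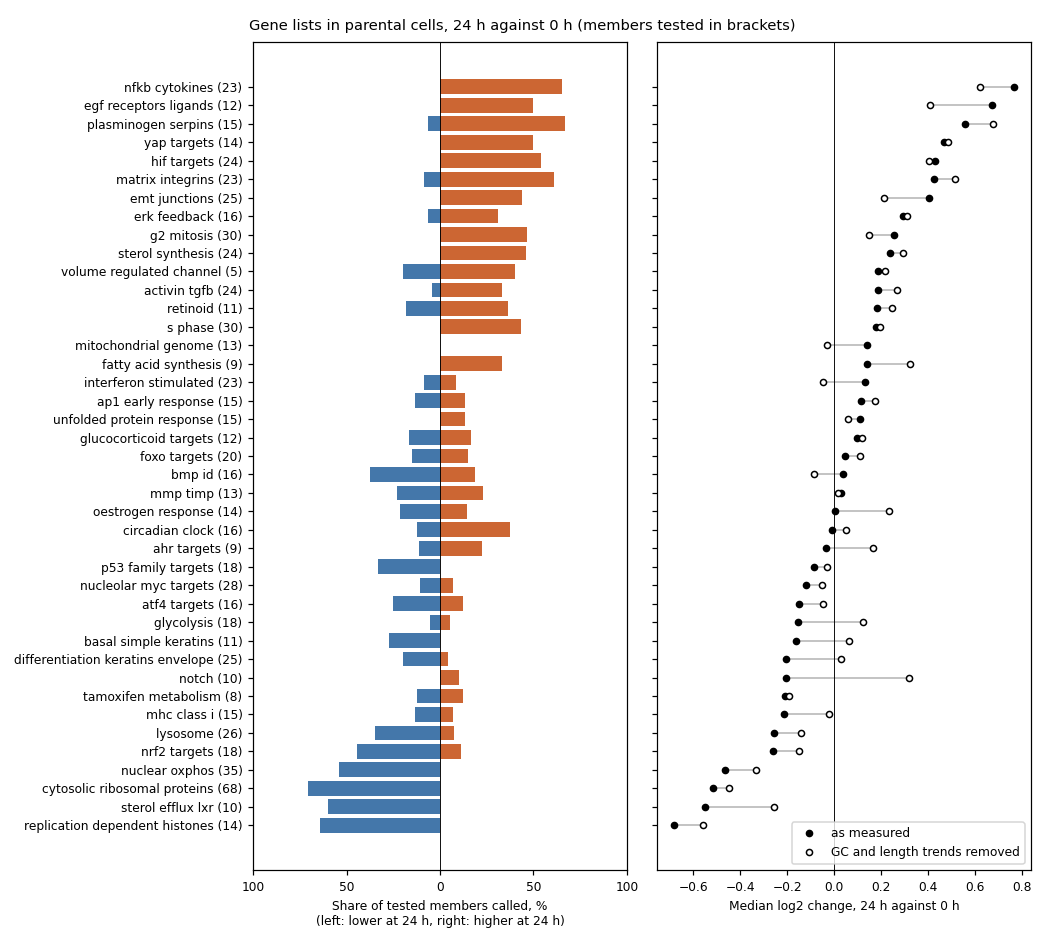
Gene lists in the 24 h against 0 h comparison: on the left the share of tested members called lower (to the left of 0) or higher (to the right), in percent; on the right the median log2 change as measured (filled) and with GC and length trends removed (open). The NF-kB list reached a median of 0.77 and the replication-dependent histones one of -0.68.

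Some cholesterol synthesis genes rose, and most of the listed sterol efflux genes fell. SREBP-2 raises genes of synthesis and lipoprotein uptake when membrane sterol is low, and liver X receptors raise efflux genes when oxysterols are plentiful. Of 24 synthesis and uptake genes tested, 11 were called higher and 0 lower (median 0.24), or 11 and 1 with the trends removed (median 0.29). Without 0 h replicate 2 they were 11 and 6, and the number higher was 2 without 0 h replicate 1, 9 without 0 h replicate 3, and 2, 5 and 2 without 24 h replicates 1, 2 and 3. HMGCS1, an early enzyme of the pathway, had 141, 169.6 and 128 CPM against 299, 290.4 and 290.4 CPM (log2 1.01 ± 0.11) and INSIG1, a sterol sensor, 63.5, 73.3 and 62.9 CPM against 119, 106 and 119 CPM (log2 0.79 ± 0.10). Both were firm and their groups did not overlap. IDI1, MSMO1 and SC5D of the middle and late steps rose by 0.54 ± 0.08, 0.61 ± 0.09 and 0.75 ± 0.14. EBP, another late enzyme, had -0.26 ± 0.15 and was not called.

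Of 10 sterol efflux and liver X receptor genes, 6 were called lower and 0 higher (median -0.55), or 5 and 0 with the trends removed, with a median of -0.26. The exporter ABCG1 had 27.1, 26.5 and 27.6 CPM against 13.3, 12.2 and 14.1 CPM (log2 -1.03 ± 0.10) and was firm, the sole member called without 0 h replicate 1 or without each 24 h library in turn. The receptor NR1H3 fell by 0.76, SREBF1 by 0.65, APOE by 1.10 and MYLIP, a ubiquitin ligase, by 0.70. Of 9 fatty acid genes, 3 were called higher and 0 lower, the same counts as with the trends removed. These were ACLY, FADS1 and ELOVL5, at 0.48 ± 0.11, 0.42 ± 0.08 and 0.45 ± 0.14. Of 26 lysosome genes, 9 were called lower and 2 higher, or 3 and 2 with the trends removed. The number lower was 17 without 0 h replicate 2, 6 without 0 h replicate 3 and 0 without each of the other 4. The protease CTSD and GPNMB fell by 0.72 and 0.82, and the cholesterol exporter NPC1 rose by 0.42 ± 0.09.

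A small majority of the hypoxia-inducible genes were higher while glycolytic enzymes were mostly not called. Hypoxia-inducible factors raise genes of oxygen sensing, pH control and glucose use when oxygen or prolyl hydroxylase activity is low. Of 24 members tested, 13 were called higher and 0 lower (median 0.43), or 15 and 0 with the trends removed (median 0.41). The number higher was 0, 17 and 11 without 0 h replicates 1, 2 and 3 and 2, 4 and 1 without 24 h replicates 1, 2 and 3, so no member was firm. ANGPTL4, a secreted inhibitor of lipoprotein lipase, had 56.6, 36.8 and 58.5 CPM against 94.8, 90.4 and 107 CPM (log2 0.95 ± 0.17), NDRG1 575, 501 and 609 CPM against 876, 799.6 and 1211 CPM (log2 0.78 ± 0.16), and CA9, a carbonic anhydrase used as a hypoxia marker, 0.368, 0.251 and 0.488 CPM against 0.995, 0.708 and 3.31 CPM (log2 2.18 ± 0.56). In each of them 24 h replicate 3 was the highest library and 0 h replicate 2 the lowest. PDK1, a kinase that inhibits pyruvate dehydrogenase, rose by 0.74 ± 0.16. The angiogenic factor VEGFA and the carbonic anhydrase CA12 rose by 0.44 ± 0.09 and 0.49 ± 0.09, and HK2 had 0.36 ± 0.14. Of 18 glycolysis genes, the lactate carrier SLC16A1 rose by 0.44 ± 0.11 and LDHB fell by 0.34. The others were not called, LDHA among them at 0.28 ± 0.09, and 3 were called higher and 1 lower with the trends removed.

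DEPP1 did not move with FOXO targets as a group. FOXO factors are active when insulin and AKT signalling is low and raise genes of starvation and cell-cycle arrest. Of 20 members tested, 3 were called higher and 3 lower (median 0.05), or 4 and 5 with the trends removed. DEPP1 and KLF6 (119, 138 and 100.1 CPM against 229.9, 232 and 230.2 CPM, log2 0.96 ± 0.12) were firm, and the atypical cyclin CCNG2 rose by 0.76 ± 0.15. The repressor BCL6, the ubiquitin ligase component FBXO32 and the mitochondrial kinase PINK1 fell by 0.71, 0.65 and 0.38. SESN1 had -0.09 ± 0.10 and PDK4 -0.32 ± 0.15.

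Of 14 oestrogen-response genes tested, 2 were called higher and 3 lower (median 0.01), or 3 and 2 with the trends removed (median 0.24), and the other 6 listed genes did not pass the filter on low counts. GPER1, a membrane receptor that 4-OHT is also reported to bind, had 27.3, 20.1 and 26.4 CPM against 12.3, 11.3 and 13.6 CPM (log2 -0.98 ± 0.14), and the nuclear receptor cofactor NRIP1 29.9, 42.2 and 20.1 CPM against 63.7, 61.2 and 70.1 CPM (log2 1.08 ± 0.23). MYB rose by 0.57 ± 0.13, IGFBP4 and the potassium channel KCNK5 fell by 0.85 and 0.66, and GREB1, a standard target of the classical receptor, had -0.36 ± 0.15. None of the 5 called genes was firm. Of 9 genes of the aryl hydrocarbon receptor pathway, AHR (0.77 ± 0.23) and TIPARP (0.63 ± 0.13) rose. The aldehyde dehydrogenase ALDH3A1 had 24.4, 19.0 and 25.2 CPM against 11.5, 11.2 and 12.5 CPM (log2 -0.96 ± 0.13) and was firm. With the trends removed 1 gene of this list was called higher and 1 lower. CYP1A1, the most widely used readout of that receptor, had 0.669, 0.714 and 0.607 CPM against 0.603, 0.875 and 0.885 CPM (0.25 ± 0.21) with overlapping groups. Of 8 genes of tamoxifen metabolism and export that could be tested, the exporter ABCG2 rose by 0.87 ± 0.27 and ABCC2 fell by 0.47. With the trends removed 0 were called higher and 1 lower, so the rise was not called.

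Among 12 glucocorticoid targets and the receptor, 2 were called higher and 2 lower, or 2 and 3 with the trends removed. TSC22D3, also known as GILZ, had 155, 133 and 152 CPM against 70.8, 77.4 and 75.0 CPM (log2 -0.97 ± 0.09) and was firm, whereas the receptor NR3C1 rose by 0.66 ± 0.15. Of 16 clock genes, 6 were called higher and 2 lower, or 5 and 2 with the trends removed. The repressor BHLHE40 rose by 0.73 ± 0.09 and was firm, CLOCK rose by 0.73 ± 0.18, and DBP, a clock output gene, had 3.77, 2.97 and 4.32 CPM against 1.82, 1.28 and 1.68 CPM (log2 -1.20 ± 0.20). LRRC8C, a subunit of the volume-regulated anion channel, had 13.0, 18.1 and 12.2 CPM against 39.6, 34.3 and 39.4 CPM (log2 1.39 ± 0.16) and was the firm member of 5 subunits, of which 2 were called higher and 1 lower, or 1 and 0 with the trends removed. Of 10 Notch genes NOTCH2 was called (0.88 ± 0.19) and no other, while 2 were called higher with the trends removed, where the median went from -0.20 to 0.32.

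Replication and mitotic genes were partly higher. Of 30 S-phase genes, 13 were called higher and 0 lower (median 0.18), or 12 and 0 with the trends removed. Of 30 G2 and mitotic genes, 14 were called higher and 0 lower (median 0.26), but 5 and 0 with the trends removed (median 0.15). The S-phase count was 14 without 0 h replicate 2, 10 without 0 h replicate 3, 1 without 24 h replicate 2 and 0 without each of the other 3, and the mitotic count 17, 10, 0 and 0 in the same order. Cyclin E2, CCNE2, had 6.17, 11.1 and 5.60 CPM against 17.0, 18.0 and 18.2 CPM (log2 1.22 ± 0.24) and MKI67, a marker of cycling cells, 223, 229 and 174 CPM against 311, 313 and 328 CPM (log2 0.61 ± 0.12). In both, 0 h replicate 2 was the highest of its group and below every 24 h library. MCM10 and RRM2 rose by 0.66 ± 0.11 and 0.58 ± 0.10 and TOP2A and the motor protein CENPE by 0.59 ± 0.15 and 0.72 ± 0.14, while MCM2 and AURKA had 0.14 ± 0.09 and 0.15 ± 0.08.

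Most replication-dependent histone genes, whose mRNAs largely lack poly(A) tails, went the other way. Of 14 tested, 9 were called lower and 0 higher (median -0.68), or 7 and 0 with the trends removed (median -0.56), and the number lower was 3, 10 and 6 without 0 h replicates 1, 2 and 3 and 2 without each 24 h library in turn. H2AC6 (45.6, 44.7 and 47.8 CPM against 26.0, 25.8 and 25.7 CPM, log2 -0.83 ± 0.08) and H3C10 (-0.97 ± 0.13) were firm. Histone genes are close copies, so single values are uncertain. Of 18 genes of the p53 family and its targets, 6 were called lower and 0 higher (median -0.09), or 5 and 1 with the trends removed. The stress cytokine GDF15 had 4.66, 4.02 and 5.14 CPM against 2.11, 2.33 and 2.03 CPM (log2 -1.09 ± 0.14) and was firm, and the apoptosis genes BBC3 and BAX fell by 0.70 and 0.56.

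Most cytosolic ribosomal protein genes were lower, as were a small majority of the nuclear genes of oxidative phosphorylation. Of 68 ribosomal protein genes, 48 were called lower and 0 higher (median -0.51), or 37 and 0 with the trends removed (median -0.45), and their log2 changes ran from -0.78 to -0.23. The number lower was 0, 67 and 16 without 0 h replicates 1, 2 and 3 and 0 without each 24 h library in turn. As a share of all counts, ribosomal protein genes took 6.65% ± 0.971 at 0 h and 4.80% ± 0.216 at 24 h (SD, n = 3 each, two-sided exact permutation p = 0.1, the smallest that 3 against 3 can give). RPS28 had 453, 358 and 552 CPM against 269, 246 and 277 CPM (log2 -0.78 ± 0.15), with 0 h replicate 2 nearest to the 24 h libraries. Of 35 oxidative phosphorylation genes, 19 were called lower and 0 higher (median -0.46), or 18 and 0 with the trends removed (median -0.33), with 0, 27 and 8 lower without 0 h replicates 1, 2 and 3 and 0 without each 24 h library in turn. ATP5F1D of the ATP synthase had 162, 100.1 and 176 CPM against 79.4, 71.7 and 79.0 CPM (log2 -0.92 ± 0.19). Many ribosomal protein genes have processed pseudogenes that may share their reads. None of the 13 mitochondrially encoded protein genes was called, as measured or with the trends removed (median 0.14 and -0.03). Mitochondrial transcripts took 3.34% of counts in 0 h replicate 1 and 6.57% and 6.31% in 0 h replicates 2 and 3. The median of these 13 genes was -0.17 without 0 h replicate 1, and in the fit of all 24 libraries 2 were called higher, or 5 lower and 0 higher without that library. Of 28 nucleolar and other MYC target genes, 2 were called higher and 3 lower (median -0.12), or 2 and 0 with the trends removed, and NCL, the nucleolin gene, had -0.12 ± 0.11.

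Stress and defence lists showed few or mixed calls. Of 18 NRF2 genes, 8 were called lower and 2 higher, but 4 and 0 with the trends removed. The ferritin chain FTH1 had 9258, 7894 and 11411 CPM against 6051, 5886 and 6097 CPM (log2 -0.66 ± 0.14), FTL and HMOX1, which frees iron from haem, fell by 0.84 and 0.76, and the cystine carrier SLC7A11 rose by 0.83 ± 0.22. Of 15 unfolded protein response genes, 2 were called higher and 0 lower, or 3 and 0 with the trends removed. Of 16 ATF4 targets 2 were higher and 4 lower, or 5 and 4 with the trends removed. SEL1L and DNAJB9, both of protein quality control, rose by 0.72 ± 0.18 and 0.38 ± 0.12, the lipoprotein receptor VLDLR by 1.24 ± 0.24, and ATF4 and the amino acid carrier subunit SLC3A2 fell by 0.40 and 0.50. Of 23 interferon-stimulated genes, 2 were called higher and 2 lower, with OAS3 at 0.42 ± 0.12 and ISG15 and BST2 down by 0.71 and 0.53. With the trends removed they were 4 and 0, so neither fall was called, and each was called in 1 of the 6 fits without 1 library. Of 15 MHC class I genes, 1 was called higher and 2 lower. These were the peptide trimmer ERAP1 (0.54 ± 0.14) and the immunoproteasome subunits PSMB8 (-0.42 ± 0.12) and PSMB10 (-0.66 ± 0.15), and with the trends removed 1 and 0 were called.

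The neighbouring times in parental cells show when these changes were present. Between 8 h and 24 h, 410 of 20592 genes (1.99%) were called, 232 higher (1.13%) and 178 lower (0.864%) at 24 h. Without 8 h replicates 1, 2 and 3 the count was 26, 80 and 27, and without 24 h replicates 1, 2 and 3 it was 36, 74 and 37. KRT10 fell further between these times, from a mean of 339 to 134 CPM (log2 -1.34, edgeR adjusted p = 0.00012). INHBA rose further, by 0.85. SERPINB2 had 0.77 (edgeR adjusted p = 0.0643) and DEPP1 0.99, neither called. The firm plasminogen genes PLAU and F3 had -0.13 and 0.04 between 8 h and 24 h and HMGCS1 had 0.15, and none of these 3 was called.

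Between 24 h and 48 h, 1474 genes (7.16%) were called, 688 higher (3.34%) and 786 lower (3.82%) at 48 h. Leaving out 48 h replicate 1, 2 or 3 gave 722, 722 and 1251, and leaving out 24 h replicate 1, 2 or 3 gave 716, 853 and 712. Several proteases and serpins came down. SERPINB2 fell by 1.62, from a mean of 11.4 to 3.71 CPM, MMP9 from 6.46 to 0.946 CPM (log2 -2.77), and MMP10 from 8.92 to 2.52 CPM (log2 -1.83). In the plasminogen list 8 of 15 genes were called lower at 48 h than at 24 h and 1 higher (median -0.41, beside 0.01 over all genes), and in the metalloproteinase list 5 of 13 lower and 2 higher. INHBA and TGM2 fell by 0.76 and 1.09, and KRT10 and CD36 rose by 0.55 and 1.37. S-phase genes came down, with 28 of 30 called lower at 48 h (median -0.51). The sterol synthesis genes had 0 called higher and 0 lower, and the hypoxia genes 1 and 1. Neither this comparison nor that with 8 h contrasts the 0 h libraries, but these were among the 12 parental libraries fitted and so entered the estimate of spread. Over 9607 genes the change from 8 h to 24 h ranked with transcript GC content at rho = -0.43, and that from 24 h to 48 h at 0.04. Neither comparison was fitted with the trends removed, and the part of GC content in their calls was not tested.

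The comparisons of 8 h and 48 h with 0 h use the same 0 h libraries as the 24 h comparison, so their values are set side by side only. In the fit of 12 parental libraries 4224 genes (20.5%) were called at 8 h and 7239 (35.2%) at 48 h. SERPINB2 had log2 changes from 0 h of 2.56 at 8 h and 1.72 at 48 h, INHBA of 1.79 and 1.88, DEPP1 of 1.75 and 2.18, and KRT10 of -0.67 and -1.46. HMGCS1 had 0.85 and 0.96, and ATOH8 -1.51 and -1.26, all of them called. MMP9 and MMP10 had -0.17 and 0.10 at 48 h and were not called there.

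**Figure D4:**
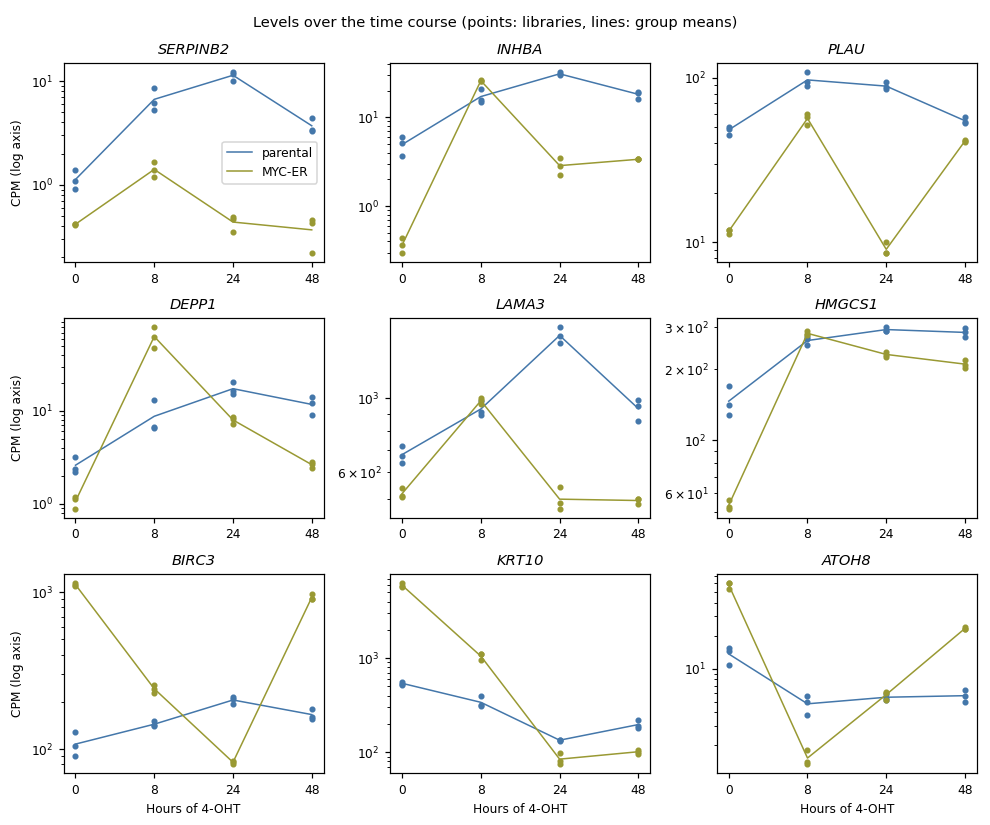
Levels of 9 genes (y axis, CPM on a log scale) over hours of 4-OHT (x axis) in parental and MYC-ER cells, with 1 point per library and lines through group means. In parental cells SERPINB2 had a mean of 11.4 CPM at 24 h and 3.71 CPM at 48 h, and HMGCS1 means of 293 and 285 CPM.

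The change from 0 h to 24 h was also compared between parental and MYC-ER cells by an interaction test over 12 libraries, which called 11207 of 21178 genes (52.9%), with 27.1% of genes changing more upward and 25.8% more downward in MYC-ER cells. In MYC-ER cells alone 60.7% of genes were called between 0 h and 24 h. Of the 24 genes with the largest parental changes, 17 passed it. The values here are the change in MYC-ER cells minus that in parental cells. SERPINB2 rose in parental cells, while its MYC-ER means were 0.417 CPM at 0 h and 0.438 CPM at 24 h (log2 -3.26 ± 0.25, edgeR adjusted p = 2.8e-07). STEAP4 rose in parental cells and fell in MYC-ER cells, from 9.27 to 0.671 CPM (-5.50 ± 0.23). KRT10 fell in both lines and by more in MYC-ER cells, from 5949 to 84.4 CPM (-4.13 ± 0.13). EGLN3 and LOXL2 rose in both lines and by more with the fusion (5.24 ± 0.39 and 3.24 ± 0.29). BIRC3 and TNFAIP3 rose in parental cells and fell in MYC-ER cells (-4.69 ± 0.15 and -3.84 ± 0.10). In the NF-kB list as a whole 13 of 23 genes changed less upward in MYC-ER cells by this test and 1 more. DEPP1 and INHBA rose in both lines, with interaction values of 0.17 ± 0.23 and 0.33 ± 0.28 that did not pass the test. A p that misses the threshold does not show that the lines responded alike.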

How the data were processed

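Gene-level counts of poly(A) RNA were deposited by the authors as whole numbers for 60668 genes. The submitters' processing notes name Trimmomatic 0.39, STAR, StringTie 2.1.3b and GRCh38, without roles. Because StringTie derives counts from coverage, they may be estimates. The annotation release and the use of strand are not given in the sources used here. Groups came from the labels. Genes passing filterByExpr were tested with edgeR 4.0.16 in R 4.3.3 (TMM scaling, quasi-likelihood test, two-sided, Benjamini-Hochberg adjustment over all genes, threshold 0.05). The reported fit held the 6 libraries compared, since the parental 0 h libraries vary more than others. CPM values use TMM library sizes. GC and length trends were removed per library by lowess (span 0.3, GENCODE v29 GC content and length). Named genes were the 12 largest called rises and falls with 5 CPM or more on average in the higher group, no overlap, and a symbol that is not clone-based, LINC, MIR, SNOR, antisense or a pseudogene, with any member of the 48 gene lists nameable. The comparison, its members and the lists were chosen with earlier results of these data known. Some listed genes are counted but not reported here by name. Alternatives covered scaling, filters, DESeq2 1.42.0, other library sets, the replicate number and each library left out. The fitting steps were also run on simulated counts, with a GC trend added equally to all 24 h libraries. The difference within the 0 h group was not simulated, so that run cannot show how it affects the calls.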

Additional observations from a re-analysis of the deposited data

Results flagged for a closer look

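For 17 of the 24 genes with the largest parental changes, the change at 24 h against 0 h differed between MYC-ER and parental cells by the edgeR interaction test. Values are log2 differences, with the parental change subtracted from that in MYC-ER cells. Among genes that rose in parental cells it was -3.26 for SERPINB2, 5.45 for MMP9, 4.11 for MMP10, 3.24 for LOXL2, -0.99 for TGM2, 5.24 for EGLN3, -5.50 for STEAP4, -0.48 for PRDM1 and -1.96 for POMK. Among genes that fell it was -4.13 for KRT10, 0.76 for SAMD11, 1.81 for CALML3, -2.61 for UGT1A7, -3.14 for CD36, -2.01 for ATOH8, 3.67 for LGALS7 and -3.89 for ETNK2. Of all genes tested, 52.9% passed this test. MMP9 and MMP10 lay at means of 0.00779 and 0.0250 CPM in MYC-ER cells at 0 h, so the size of their values depends on the prior count of the fit.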

How the results depend on the processing

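The named genes kept their direction, the number of calls did not hold, and some list medians turned sign. For 203 genes named in the text under 25 alternatives each, none of 5075 comparisons turned the sign, 4076 kept their side of the threshold, 893 lost the call and 106 gained it. Called genes seldom overlapped between groups, so a turned sign was unlikely in advance where 1 library was left out. Over the alternatives run for the gene lists the median log2 change ran from -0.35 to 0.05 for squamous differentiation, -0.32 to 0.07 for basal and simple keratins, -0.28 to 0.33 for Notch, -0.24 to 0.13 for glycolysis, -0.11 to 0.18 for the aryl hydrocarbon receptor, -0.18 to 0.32 for mitochondrially encoded genes, -0.05 to 0.20 for interferon-stimulated genes, -0.08 to 0.26 for oestrogen response and -0.09 to 0.15 for the clock, and the BMP, metalloproteinase and FOXO medians, which ran from -0.09 to 0.07, -0.08 to 0.09 and -0.03 to 0.12, also turned. At 24 h against 0 h, 4923 genes were called and 642 with at least a 2-fold change. With no filter on low counts these were 1023 and 278. Fitting 12 parental libraries gave 7960 called genes and all 24 libraries 9503, with more genes passing the filter (20592 and 22158, against 19581). Without both trends there were 3282 calls, 421 of at least 2-fold, and 7773 in the fit of all 24 libraries, an alternative added after seeing the data. Leaving out 1 of the 6 libraries gave 198 to 8997 calls and 120 to 1425 of at least 2-fold, and within the fit of all 24 libraries, also added after seeing the data, 8381, 10691 and 7866 calls without 0 h replicates 1, 2 and 3 and 8561, 8963 and 8564 without 24 h replicates 1, 2 and 3, with 610 to 1611 of at least 2-fold. Between 24 h and 8 h, 410 calls became 146 with no filter, 1505 with DESeq2's Wald test, 2424 with all 24 libraries, and 26 to 80 without 1 library. Between 48 h and 24 h, 1474 calls became 2319 with DESeq2, 2927 with all 24 libraries, and 712 to 1251 without 1 library. The interaction count of 11207 ran from 10317 to 12378 over its alternatives. DESeq2's Wald test called 6441 genes at 24 h against 0 h. The causes of these shifts were not tested. Replicate numbers mark no known pairing: deviations of same-numbered libraries correlated at 0.17, -0.10 and -0.05 across genes. With the replicate number as a block, 2781 genes were called at 24 h against 0 h (529 of at least 2-fold), 708 (216) when the trends were also removed, 139 between 24 h and 8 h, and 1197 between 48 h and 24 h. Of the 24 named genes, 23 were called at 24 h against 0 h with the block alone. With the trends also removed, POMK, UPK3BL1 and GCHFR were not called.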
